A study of Coturnix japonica with 12 samples.

Results

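The genes described here are those whose left-right difference in the Müllerian ducts changed, in female embryos of Japanese quail (Coturnix japonica), with exposure to ethynylestradiol (EE), a synthetic oestrogen. They were found with a single contrast over all 12 samples of the series: the difference of left from right ducts given EE, less the same difference in ducts given sesame oil, called the interaction below, on the log2 scale. The table lists 16013 genes, of which 11790 passed the filter on low values, and 1394 of these (11.8%) were called at a Benjamini-Hochberg adjusted p under 0.05 in edgeR's quasi-likelihood test. The called genes were then sorted by the duct that moved between oil and EE. The 4 groups of 3 samples were left and right ducts of female embryos kept in culture in surrogate eggshells and given sesame oil alone, and left and right ducts of female embryos given EE in sesame oil. Both exposures ran over embryonic days 3 to 12. The labels give no EE dose, no strain and no day of collection, and do not state if a replicate is 1 embryo or a pool, so the p-values measure the spread between these samples, which may be technical in part.

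The Müllerian ducts are paired tubes of mesenchyme and epithelium that form the oviduct. In most female birds the left duct alone grows into an oviduct, while the right duct regresses under anti-Müllerian hormone from the ovaries, and oestrogen is known to protect a duct from that regression. Programmes known from regressing ducts of mammals and birds include loss of epithelium, matrix breakdown and WNT and BMP family signals from the mesenchyme. In bulk tissue, fewer cells of a type and less RNA per cell cannot be told apart, which holds for every level below.

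The libraries held 13303458 to 23621985 counts. All 10 Müllerian duct markers (among them PAX2, LHX1, EMX2 and HOXA10) were present in every group, at a summed level of 1282 to 1850.0 CPM (counts divided by TMM-adjusted library size). Of other tissues, the 7 mesonephros markers summed to at most 10.2 CPM and the 6 gonad markers to at most 5.39 CPM in any library. Haemoglobin transcripts from 7 genes took 1.35 to 3.01% of the counts in left oil ducts and 6.11 to 12.7% in right ones, while with EE left ducts had 0.991 to 2.10% against 1.66 to 5.65% in right ducts. The right oil library 1 carried 95.6 CPM of skeletal muscle markers against at most 20 CPM elsewhere. The 4 plasma protein markers summed to 1109 to 1824 CPM in right oil ducts, most of it APOA1, against 243 to 310 CPM in left oil ducts. With EE they summed to 319 to 358 CPM in left ducts. The right EE library 1 carried 1470.3 CPM of them, against 437 and 526 CPM in the other right EE libraries. Its sum differed in make-up from that of the right oil ducts. It held 596 CPM of ALB, 48.8 of FGA and 35.5 of FGB besides 789.6 of APOA1. In all other libraries ALB was at most 92.9 CPM, in the right oil library 3, and FGA at most 1.59 CPM. The source of these transcripts was not tested.

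The left-right difference shrank in EE for almost all of the called genes. The difference was smaller in size in EE than in oil for 1390 of 1394 genes. It was larger in size, with its sign reversed, for 4 (0.0339% of those tested). It fell (the left side lost ground to the right) in 835 genes, or 7.08% of those tested, and rose in 559, or 4.74%. In oil 4423 genes (37.5%) were called between left and right ducts, and in EE 10 genes (0.0848%) were. These contrasts share their samples with the interaction, so they are set side by side and are no separate support. Over the called genes the median left-right difference remaining in EE was 15.9% of that in oil. Among the called genes 544 had an interaction of at least 1 in size. The median size was 0.85 over the called genes, which were chosen by that test, and 0.23 over all genes tested. Just inside the threshold lay MYB (adjusted p = 0.0499) and just outside it NBEA (0.0501).

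**Figure D1:**
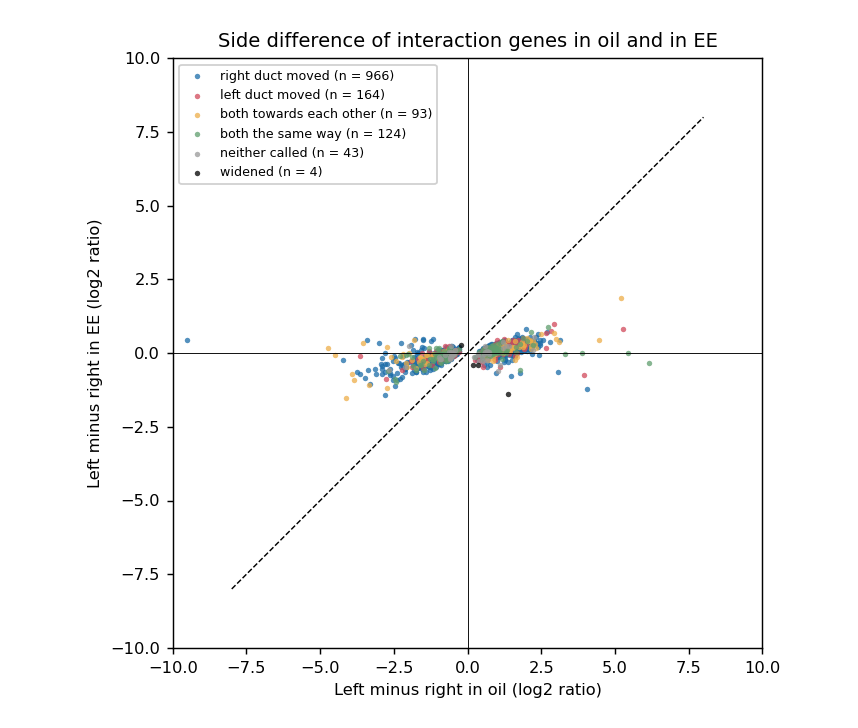
Left minus right log2 ratio in oil (horizontal axis) and in EE (vertical axis) for each of the 1394 called genes, coloured by the duct that moved. The points lie near the horizontal line at 0, far from the dashed line of equal differences.

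The right duct moved in most of these genes. In 966 genes (8.19% of those tested) the right duct changed with EE towards the left oil level, and no call was made in the left duct. The left duct moved towards the right oil level, with no call in the right duct, in 164 genes (1.39%). Both ducts moved towards each other in 93 genes (0.789%), and both moved the same way by unequal amounts in 124 (1.05%). Neither duct's own change was called in 43 genes (0.365%). For comparison, EE minus oil was called for 34.9% of genes in right ducts and for 13.7% in left ducts. A duct whose change was not called has not been shown to stay still. The haemoglobin share differed between the groups as given above, and with it as a covariate 1057 genes were called and 628 were sorted to the right duct.

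**Figure D2:**
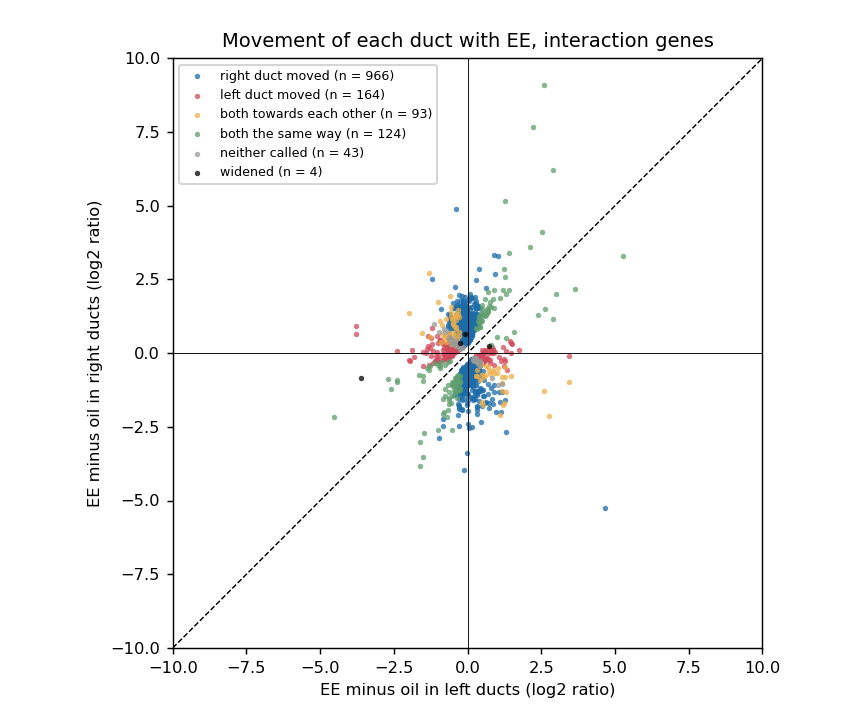
EE minus oil log2 ratio in left ducts (horizontal axis) and in right ducts (vertical axis) of the 1394 called genes, coloured by sort. The 966 genes of the right duct form a vertical band and the 164 of the left duct a horizontal one. Genes that moved the same way in both ducts lie to the upper right and lower left, off the dashed diagonal of equal change.

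The sort by calls can be set beside a continuous measure, the share of the shrinkage that the right duct contributed, where 1 means the right duct alone and 0 the left duct alone. The median share was 0.829, with quartiles of 0.598 and 1.04. It lay above 1 in 402 genes, in which the left duct moved the same way as the right one, and under 0 in 87. Right oil ducts stood outside the range of the other 9 samples in 1151 of the called genes (82.6%), against 28.1% of all genes tested. Left oil ducts stood outside the range of the others in 472 (33.9%), against 9.62% of all tested, and each oil group stood apart from all other samples in 257 genes (18.4%, against 2.35%). The called genes were chosen by the interaction in these same samples. The higher shares thus follow in large part from that choice and are no separate support.

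**Figure D3:**
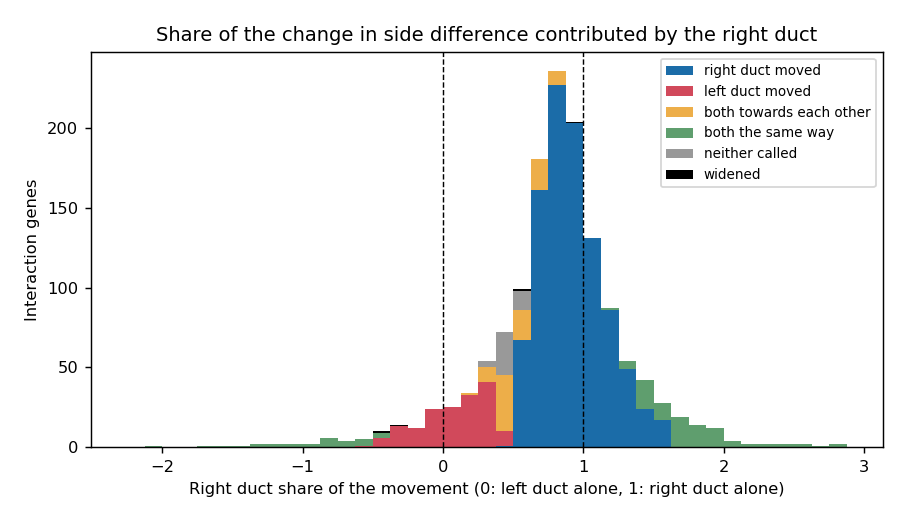
Number of called genes (vertical axis) by the right duct's share of the change in side difference (horizontal axis, no unit), coloured by sort. The quartiles are 0.598 and 1.04, and a smaller shoulder around 0 holds the genes of the left duct.

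The right duct did not always reach the left oil level. In 671 of its 966 genes right EE ducts and left oil ducts were not called apart, and in 295 they were (against 18.9% of all genes). Of the 295, 284 stopped short of the left oil level and 11 went past it. A missed call does not show that the left oil level was reached. By their estimates, 791 of the 966 lay short of it, called or not. The median distance from it was 26.4% of the left-right difference in oil. The 581 genes (4.93%) that rose in the right duct had a median right-duct change of 0.85 and a median left-duct change of -0.13. The 385 genes (3.27%) that fell there had medians of -0.75 and 0.04. Over all genes tested these medians were 0.00 and -0.01.

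Genes of dividing cells rose in the right duct. All 30 tested genes of the proliferation list were called with a lower left-right difference in EE (against 7.08% of all genes), 25 of them by the right duct and 5 by both ducts. The list was chosen with earlier results of these data known, so this share is no independent support. By the annotation in the table, 13 of 32 genes of mitotic nuclear division were called, 12 of them lower. For the cell cycle 7 of 28 were called, 5 of them lower. For the annotated term cell proliferation 4 of 27 were called (14.8%), 3 of them lower, against 11.8% of all genes. The median interaction of the proliferation list was -1.53. MKI67, which encodes the Ki-67 antigen of cycling cells, stood at 245, 240.2 and 286 CPM in left oil ducts against 50.7, 40.8 and 49.1 in right ones, while with EE left ducts had 229, 186 and 185 against 145, 185 and 147 in right ducts. Right oil ducts were far below every other sample, and right EE ducts lay just under the left EE ducts. Its interaction was -2.12 ± 0.17 SE (adjusted p = 3.63e-06). CCNA2, a cyclin of DNA replication and entry into mitosis, stood at 119.6, 111 and 101 CPM in left oil ducts against 29.7, 26 and 25.5 in right ones, while with EE left ducts had 101, 105 and 88.8 against 75.3, 78.5 and 70.3 in right ducts. Again the right oil ducts stood apart below and the right EE ducts lay somewhat under both left groups, with an interaction of -1.63 ± 0.14. KIF11, a motor that separates the spindle poles, was sorted to both ducts, since it rose by 1.34 on the right and fell by 0.32 on the left. The topoisomerase TOP2A (-1.69 ± 0.15) and the kinase CDK1 (-1.40 ± 0.17) were also called. The number of these genes called was 30 in DESeq2, limma and each alternative scaling and filter, and 29 or 30 without each library in turn and with the haemoglobin covariate.

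**Figure D4:**
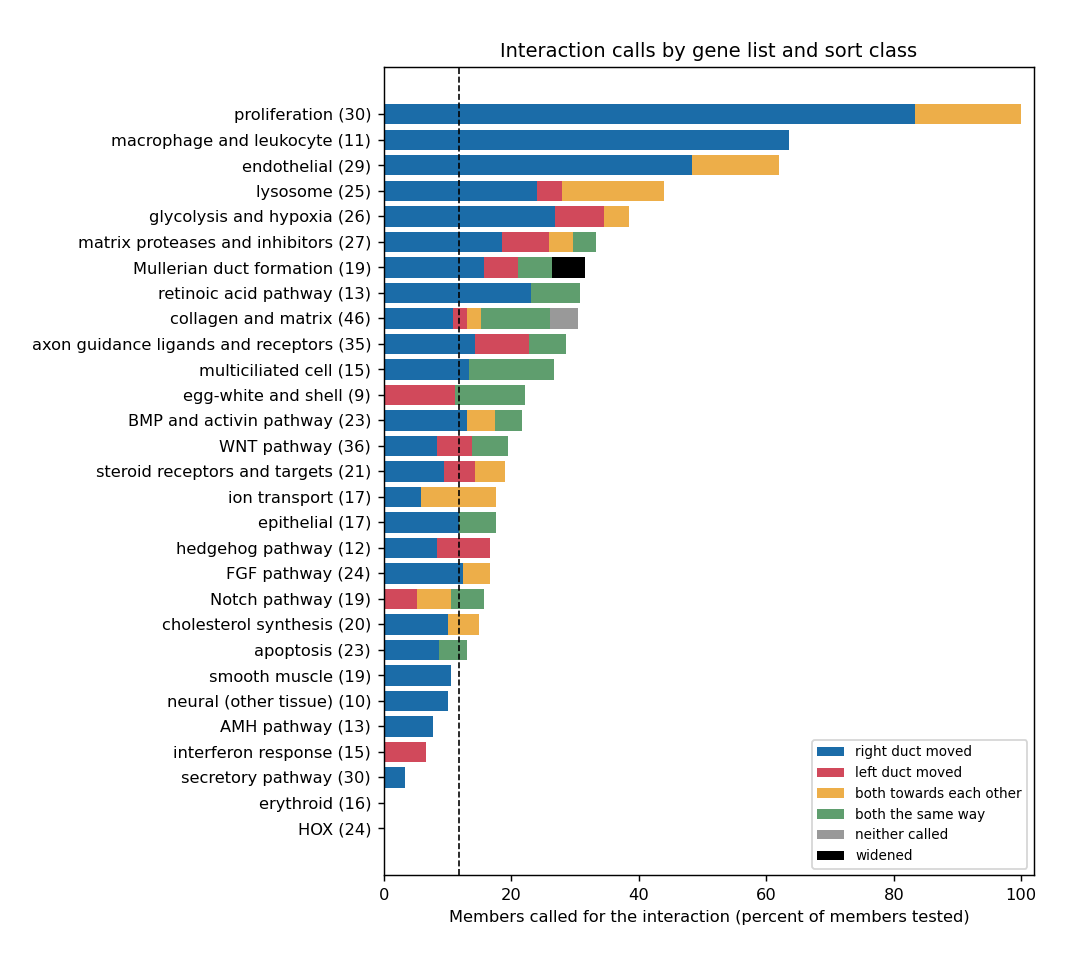
Share of tested members of gene lists called for the interaction (horizontal axis, percent), stacked by the duct that moved; the number tested stands in brackets and the dashed line marks 11.8%. Of the lists with at least 9 tested members, the ones drawn, proliferation reaches 100%, and the macrophage, endothelial and lysosome lists follow. The lists were chosen with earlier results of these data known.

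Many genes of blood vessels rose in the right duct as well. Of 29 tested endothelial genes 17 were called lower in left-right difference (background 7.08%) and 1 higher (4.74%), with a median interaction of -0.92 in the list. This list too was chosen with earlier results of these data known, so its share is no independent support. Angiogenesis, as annotated in the table, held 3 called genes of 21 tested (14.3%), 2 of them lower, against 11.8% of all genes. TIE1, a receptor of endothelial cells, stood at 87.2, 81.9 and 80.3 CPM in left oil ducts against 38.1, 30.0 and 28.6 in right ones, while with EE left ducts had 67.1, 71.8 and 78.2 against 68.8, 75.5 and 76.9 in right ducts. Right oil ducts lay far below every other sample, and the EE groups overlapped. The interaction was -1.39 ± 0.15 (adjusted p = 2.15e-05). SOX7, a transcription factor of vessel formation, stood at 135, 162 and 144 CPM in left oil ducts against 63.7, 65.5 and 66.8 in right ones, while with EE left ducts had 148, 157 and 166 against 148, 154 and 141 in right ducts. Only the right oil ducts differed from the rest, and the interaction was -1.08 ± 0.11. EMCN, endomucin of venous and capillary endothelium, moved in both ducts, since it rose by 0.90 on the right and fell by 0.38 on the left. FLT1, a receptor of VEGF, had an interaction of -1.52 ± 0.20. The exception was KDR, the main signalling receptor of VEGF, which was higher in right oil ducts and fell there by 1.11, with an interaction of 1.09 ± 0.27. The basement membrane collagens COL4A1 (-0.98 ± 0.21) and COL4A2 (-1.05 ± 0.20) rose in the right duct.

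The called macrophage genes fell in the right duct. Of 11 tested members 7 were called with a higher left-right difference (background 4.74%) and none lower, all by the right duct, and the median interaction was 1.68. The list summed to 253 to 263 CPM in right oil ducts and 75.4 to 90.9 in left oil ducts, while with EE left ducts had 92.8 to 122 against 113 to 136 in right ducts. C1QA, a chain of complement C1q made by macrophages, stood at 3.64, 4.81 and 3.33 CPM in left oil ducts against 33.5, 37.8 and 32.1 in right ones, while with EE left ducts had 6.14, 6.23 and 7.12 against 10.3, 6.94 and 14.8 in right ducts. Right oil ducts were the highest, right EE ducts lay between them and the left oil ducts, and the EE groups overlapped. The interaction was 2.41 ± 0.33 (adjusted p = 0.000165). LAPTM5, a lysosomal protein of blood cells, had an interaction of 1.98 ± 0.25, and LCP1, an actin bundler of leukocytes, of 1.75 ± 0.28. The myeloid transcription factor SPI1 (1.96 ± 0.37) and CSF1R, the receptor of macrophage growth factor (0.93 ± 0.17), changed the same way. The number called was 7 or 8 without each library in turn, and 5 with an FPKM of 5 as the filter.

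Red cell genes did not pass the interaction test. Of 16 tested erythroid genes 0 were called for it by edgeR's quasi-likelihood test, against 11.8% of all genes. An unadjusted p under 0.05 was reached by 0, against 2923 of the 11790 genes tested. DESeq2 and limma called 0 of the 16, although their median interaction was 0.82. Without the left oil library 1, the right oil library 1 and the right EE library 1, 4 were called higher. These held the highest haemoglobin share of the left oil (3.01%) and right EE (5.65%) libraries and the lowest of the right oil ones (6.11%). Leaving them out widens the haemoglobin difference in oil and narrows it in EE, so the 4 calls are no separate support. Without each library in turn 0 were called. Between oil and EE, 8 of the 16 were called lower in right ducts (median change -1.23) and 1 in left ducts (median change -0.32). Over all genes 34.9% and 13.7% were called there in either direction. The missed interaction calls do not show that the ducts responded alike.

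The number of smooth muscle genes called varied with the libraries used. With all libraries 2 of 19 were called, both lower (background 7.08%): TPM1, a tropomyosin (-0.85 ± 0.22), and ACTA2, the smooth muscle actin (-0.79 ± 0.24, adjusted p from 0.000434 to 0.117 over the alternatives). ACTA2 was not called in 12 of 23 alternatives, among them DESeq2 and the haemoglobin covariate. Its call was also lost without the left oil libraries 2 or 3 or the right oil libraries 2 or 3. The same held without the left EE libraries 1, 2 or 3 or the right EE libraries 2 or 3. It stood at 905, 1044 and 1252 CPM in left oil ducts against 606, 377 and 406 in right ones, while with EE left ducts had 1005, 1031 and 905 against 592, 882 and 734 in right ducts. The right EE ducts lay under both left groups, and their lowest sample was below the highest right oil sample. Without the right oil library 1, which carried the skeletal muscle markers, 11 of the list were called lower, and without the right EE library 1, 5 were. The count was 0 without the left oil library 3, the left EE library 3 or the right EE library 2, and 1 without the left oil library 2, the right oil library 3, the left EE libraries 1 or 2 or the right EE library 3. It was 14 without the left oil library 1, the right oil library 1 and the right EE library 1 together.

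Among epithelial genes 3 of 17 were called, all lower (background 7.08%) through a rise in the right duct, and without the right EE library 3, 5 were. CLDN1, a claudin of tight junctions, stood at 333, 325 and 288 CPM in left oil ducts against 186, 170.0 and 176 in right ones, while with EE left ducts had 364, 349 and 327 against 315, 295 and 334 in right ducts. The right oil ducts alone stood apart, with an interaction of -0.69 ± 0.11 (adjusted p = 0.000714). CLDN3, another claudin, behaved alike (-0.74 ± 0.15), and ESRP2, a splicing factor of epithelia, rose in both ducts and further on the right (-0.80 ± 0.17). The summed level of 6 epithelial markers, which include EPCAM, CDH1 and keratins, was 649 to 674 CPM in right oil ducts, 724 to 789 in left oil ducts and 939 to 1181 in the EE groups of both sides.

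Genes known from Müllerian duct formation were called in 6 of 19 cases, all with a lower left-right difference (background 7.08%), while the list's median interaction was -0.12. WNT7A, a WNT ligand of duct epithelium needed for patterning of the female tract in mice, stood at 144, 148 and 137 CPM in left oil ducts against 66.7, 60.0 and 66.2 in right ones, while with EE left ducts had 141, 136 and 129 against 105, 128 and 113 in right ducts. Right oil ducts held the lowest levels, and right EE ducts came close to the left groups without overlapping them. The interaction was -0.93 ± 0.12 (adjusted p = 8.95e-05) and the right-duct change 0.84. MSX2, a homeobox factor of the duct, rose in the right duct (-0.65 ± 0.12), as did PAX2, needed for formation of the duct in mice (-0.80 ± 0.18). DACH2, a dachshund family factor, fell in the left duct instead (-0.66 ± 0.13, left-duct change -0.44). MSX1, a homeobox factor, fell in both ducts and further on the left: it stood at 34.8, 29.5 and 21.5 CPM in left oil ducts against 5.74, 7.32 and 12.1 in right ones, while with EE left ducts had 1.02, 0.534 and 2.02 against 0.588, 1.6 and 3.43 in right ducts. The left oil ducts were highest and both EE groups were near 0. Its interaction of -2.35 ± 0.68 lost its call in DESeq2 and without any 1 of 8 libraries, the exceptions being the left oil library 3, the right oil library 3, the left EE library 3 and the right EE library 1, and its adjusted p ran from 0.00625 to 0.144 over the alternatives.

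Among genes of hedgehog and BMP signalling, GLI1, GDF10 and FST changed in the right duct. GLI1, a transcription factor and target of hedgehog signalling, stood at 26.6, 32.9 and 22 CPM in left oil ducts against 7.5, 8.55 and 7.1 in right ones, while with EE left ducts had 30.8, 30.5 and 30.4 against 28, 30.9 and 26 in right ducts. Right oil ducts were far below the other samples, which overlapped. Its interaction was -1.71 ± 0.21 (adjusted p = 6.22e-05). With GAS1, a co-receptor of hedgehog that fell in the left duct (-0.47 ± 0.14), 2 of 12 genes of that pathway were called, both lower (background 7.08%). GAS1 lost its call without the left oil libraries 1, 2 or 3, the right oil library 2, the left EE libraries 1 or 3 or the right EE libraries 1 or 3 and with the haemoglobin covariate, with adjusted p from 0.0127 to 0.0883 over the alternatives. GDF10, a ligand of the TGF-beta family, stood at 27.5, 12.5 and 20.3 CPM in left oil ducts against 3.72, 3.8 and 3.81 in right ones, while with EE left ducts had 25.1, 24.7 and 28.9 against 31.8, 26.5 and 23.7 in right ducts. It rose from the right oil level to that of the left groups, with an interaction of -2.47 ± 0.32. FST, follistatin, an inhibitor of activins, stood at 25.7, 30.8 and 32.1 CPM in left oil ducts against 139, 110.2 and 149 in right ones, while with EE left ducts had 21.9, 25.3 and 23.9 against 27.6, 26.6 and 38.4 in right ducts. It fell in the right duct, where 2 of the 3 EE samples lay in the range of the left groups and 1 above it, with an interaction of 1.79 ± 0.21 (adjusted p = 3.58e-05). Of 23 tested genes of the BMP and activin list 2 were called lower and 3 higher (background 7.08% and 4.74%), and 4 lower without the right oil library 1. In the list of the AMH pathway 1 of 13 genes was called lower: ID1, a target of BMP receptor signalling (-0.94 ± 0.19).

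Matrix proteases and their inhibitors were called in 9 of 27 cases. Of the 27 tested, 8 were called with a higher left-right difference (background 4.74%), and 1 lower, which was MMP23B. The right duct alone moved in 5 of the 9. MMP2, a gelatinase, stood at 307, 324 and 296 CPM in left oil ducts against 933, 1039 and 1031 in right ones, while with EE left ducts had 290.1, 289.6 and 291 against 422, 359 and 453 in right ducts. The right oil ducts stood far above all other samples, and right EE ducts stayed above both left groups. Its interaction was 1.19 ± 0.12 (adjusted p = 1.35e-05). ADAMTS9, a protease of proteoglycans, stood at 179, 163 and 163 CPM in left oil ducts against 452, 471 and 512 in right ones, while with EE left ducts had 164, 171 and 184 against 231, 242 and 218 in right ducts and changed likewise (1.09 ± 0.11). The MMP23B call was absent without the left oil libraries 1 or 3, the right oil library 2, the left EE libraries 1, 2 or 3 or the right EE library 2, where the count of lower calls was 0. Of 46 collagen and matrix genes 9 were called lower and 5 higher (background 7.08% and 4.74%), or 5 lower without the right oil libraries 2 or 3.

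Of 13 tested retinoic acid genes 4 were called, all higher (background 4.74%). DHRS3, a reductase that turns retinal into retinol, stood at 112, 95.7 and 93.6 CPM in left oil ducts against 322, 312 and 336 in right ones, while with EE left ducts had 102.4, 110.3 and 111 against 151, 140.4 and 165 in right ducts. The right oil ducts were highest and right EE ducts still exceeded both left groups, with an interaction of 1.19 ± 0.12 (adjusted p = 1.27e-05). RDH10, which oxidizes retinol, changed the same way (0.58 ± 0.14, not called by limma). STC1, stanniocalcin, a secreted regulator of calcium, also fell on the right and had an interaction of 1.49 ± 0.29.

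Of the genes sorted to the right duct, VWC2L, LRRTM1 and TNNI2 had the largest positive interactions among those the naming rule takes. VWC2L, a secreted protein with a von Willebrand factor C domain, stood at 1.68, 1.84 and 0.942 CPM in left oil ducts against 16.1, 14.4 and 17.7 in right ones, while with EE left ducts had 1.25, 1.54 and 1.38 against 0.769, 1.32 and 0.945 in right ducts. Only right oil ducts had more than trace levels, and the interaction was 3.85 ± 0.45 (adjusted p = 3.62e-05). LRRTM1, an adhesion protein of synapses, fell likewise (3.37 ± 0.65). The largest negative interactions besides GDF10 were those of CRYBG2 (-2.69 ± 0.40) and SLC45A2, a transporter of pigment cells (-2.41 ± 0.51). KCNJ15, a potassium channel, stood at 63.8, 62.9 and 80.4 CPM in left oil ducts against 19.6, 12.9 and 18.6 in right ones, while with EE left ducts had 75, 78.2 and 65.1 against 72.6, 62.7 and 71.1 in right ducts and rose into the range of the left groups (-1.94 ± 0.20). TNNI2, a troponin of fast muscle (3.98 ± 1.16), stood at 13.7 CPM in the right oil library 1 and at 2.16 CPM or less in all others. It lost its call without that library, without the left oil libraries 2 or 3, the left EE libraries 2 or 3 or the right EE libraries 1 or 2, and in limma. The calcium channel subunit CACNG1, also of skeletal muscle, had 257 counts in right oil ducts and 0 in left oil ducts, while with EE left ducts had 10 against 7 in right ducts, and no fold is given for it.

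**Figure D5:**
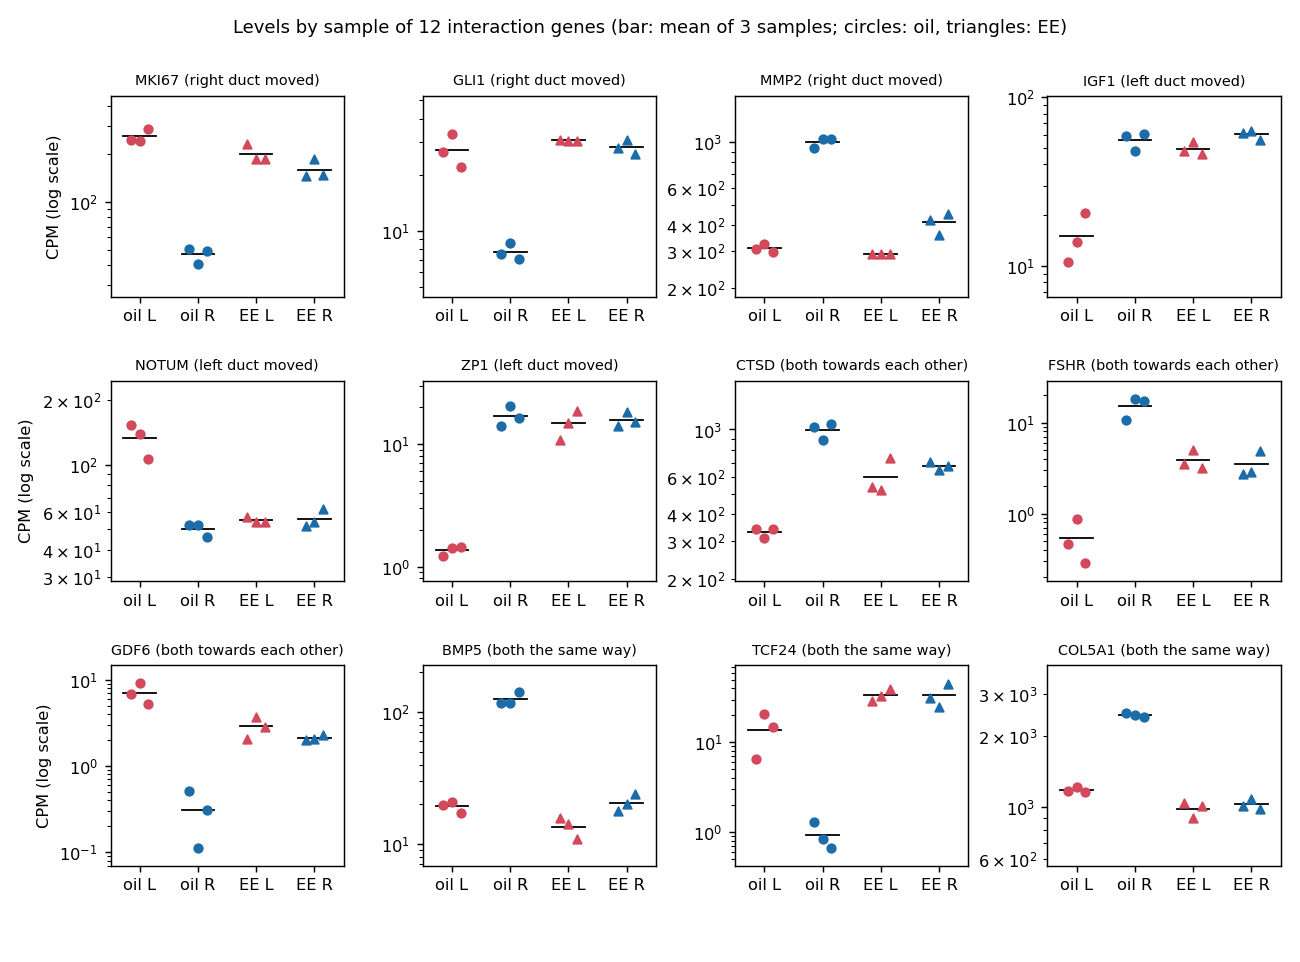
CPM (log axis) of 12 called genes in each of the 12 samples, 3 per group in left (L) and right (R) ducts, with bars at the mean of 3 samples. Only the 3 right oil samples lie outside the range of all others in GLI1, MMP2, BMP5, TCF24 and COL5A1. Only the 3 left oil samples do so in IGF1, NOTUM and ZP1, and both oil groups do so in MKI67, CTSD, FSHR and GDF6. In TCF24 and COL5A1 the left oil samples lie between the right oil samples and all EE samples.

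A smaller set moved in the left duct, towards the level of the right oil duct. Left EE ducts were not tested against right oil ducts, so arrival at that level is not shown. NOTUM, a secreted enzyme that inactivates WNT ligands, stood at 153, 138 and 106 CPM in left oil ducts against 52.4, 52.5 and 45.8 in right ones, while with EE left ducts had 57.2, 53.8 and 54.1 against 52, 53.9 and 62 in right ducts. Left oil ducts were the only high samples, and the left duct fell by 1.27 with EE. The right duct changed by 0.16, and the interaction was -1.43 ± 0.17 (adjusted p = 4.63e-05). IGF1, insulin-like growth factor, stood at 10.6, 13.8 and 20.7 CPM in left oil ducts against 58.8, 48.4 and 61 in right ones, while with EE left ducts had 48.2, 54.4 and 46.4 against 61.4, 63.4 and 56 in right ducts. Left oil ducts were the only low samples, since the left duct rose by 1.74 (interaction 1.64 ± 0.24). ZP1, a protein of the egg coat, stood at 1.21, 1.42 and 1.45 CPM in left oil ducts against 14, 20.6 and 16.5 in right ones, while with EE left ducts had 10.8, 14.8 and 18.7 against 14.1, 18.4 and 15.1 in right ducts. It rose in the left duct by 3.44, close to the left-right difference of -3.64 in oil, with an interaction of 3.54 ± 0.33 (adjusted p = 6.44e-06).

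Other genes of the left duct fell or rose as well, not all of them to the right oil level. COLQ, the collagen tail of acetylcholinesterase, fell by 2.41 in the left duct and FABP7, a fatty acid binding protein, fell by 1.89. KCNIP2, a potassium channel subunit, rose by 1.32, to a mean of 8.17 CPM against 22.4 CPM in right oil ducts. SLIT2, a guidance ligand also of the mesenchyme, stood at 328, 318 and 341 CPM in left oil ducts against 236, 211 and 230.1 in right ones, while with EE left ducts had 222, 229 and 240.3 against 233, 251 and 202 in right ducts. The left oil ducts were the only samples above the rest, with an interaction of -0.53 ± 0.12. FBLN5, an elastic fibre protein, fell by 1.20 in the left duct (-1.52 ± 0.23). ALDOC, a glycolytic aldolase, rose there by 0.59. IRF7, a factor of the interferon response, rose there by 1.21 (interaction 1.01 ± 0.25). It was the 1 of 15 genes of that list that was called, against 11.8% of all genes. The call was not made when the left oil library 1, the right oil library 1 and the right EE library 1 were left out. FIBCD1, a fibrinogen-domain receptor, fell by 1.22 and lost its call under the haemoglobin covariate and without those 3 libraries.

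WNT pathway genes were thus split between the ducts. Of 36 tested, 5 were called lower and 2 higher (background 7.08% and 4.74%). This count leaves out the ligands WNT7A and WNT9B, both called lower, which were counted with the genes of duct formation. NOTUM and AXIN2, a feedback inhibitor and WNT target (-0.50 ± 0.13), moved by the left duct, and DKK3, a dickkopf family protein (-1.11 ± 0.19), FZD8, a WNT receptor (-1.07 ± 0.32), and RSPO3, which potentiates WNT signals (0.89 ± 0.16), moved by the right duct. In both ducts WNT11 fell and LGR5, a receptor of R-spondins, rose. Of 19 Notch pathway genes 3 were called, all lower (background 7.08%): JAG2, a ligand, fell on the left and rose on the right (-0.84 ± 0.18), LFNG, a modifier of the receptor, rose in both (-0.72 ± 0.16), and NRARP, a target, fell on the left (-0.42 ± 0.13). NRARP lost its call without each library other than the left EE library 2, without the filter and with the haemoglobin covariate, with adjusted p from 0.013 to 0.124 over the alternatives.

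The gonadotropin receptors moved in both ducts, towards each other. FSHR, which binds follicle-stimulating hormone, stood at 0.467, 0.878 and 0.29 CPM in left oil ducts against 10.8, 18 and 17.4 in right ones, while with EE left ducts had 3.52, 5.04 and 3.2 against 2.71, 2.88 and 4.87 in right ducts. The oil groups were far apart on either side of the EE groups, which overlapped. It fell by 2.14 on the right and rose by 2.75 on the left, with an interaction of 4.89 ± 0.53 (adjusted p = 2.15e-05). The luteinizing hormone receptor (LOC107310840) stood at 1.17, 0.71 and 0.507 CPM in left oil ducts against 15.2, 18.4 and 22.1 in right ones, while with EE left ducts had 5.16, 8.42 and 13.4 against 7.1, 11.3 and 9.95 in right ducts. Left oil ducts were lowest and right oil ducts highest, and the rise of the left duct by 3.46 was the larger part. Its interaction was 4.43 ± 0.49 (adjusted p = 2.65e-05). The genes lie near each other on chromosome 3, FSHR at 3:9077231-9168696 and the other at 3:9249969-9269062 in the coordinates of the table. Of 5 tested genes in that list these were the 2 called, both higher (background 4.74%), and with an FPKM of 5 as the filter 1 was. The list has 18 members, of which 13 were in the table, so the 5 tested are too few to describe it.

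The called lysosomal genes moved in the right duct, the left duct or both. Of 25 tested, 11 were called, all higher (background 4.74%), 6 by the right duct, 1 by the left and 4 by both, with a median interaction of 0.43. CTSD, the protease cathepsin D, stood at 343, 311 and 343 CPM in left oil ducts against 1026, 895 and 1057 in right ones, while with EE left ducts had 535, 519 and 736 against 704, 643 and 671 in right ducts. The EE groups of the sides overlapped midway between the oil groups. Its interaction was 1.41 ± 0.16 (adjusted p = 3.62e-05). CTSA, cathepsin A (1.11 ± 0.12), GUSB, a glucuronidase (1.30 ± 0.21), and LAMP1, a membrane protein of lysosomes (0.52 ± 0.11), moved in both ducts. With library size alone as scaling 7 were called higher and 1 lower. Glycolytic and hypoxia genes were called in 10 of 26 cases, all higher (background 4.74%), 7 by the right duct. PKM, pyruvate kinase, stood at 878, 905 and 871 CPM in left oil ducts against 1454, 1427 and 1517 in right ones, while with EE left ducts had 1198, 1056 and 1133 against 1214, 1128 and 1134 in right ducts. It fell by 0.34 on the right and rose by 0.35 on the left. GPI, glucose phosphate isomerase (0.77 ± 0.13), and NDRG1, a hypoxia-induced gene (0.91 ± 0.18), fell on the right.

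Further genes moved in both ducts towards each other, not all of them to a shared level. GDF6, a BMP family ligand, stood at 6.77, 9.15 and 5.29 CPM in left oil ducts against 0.517, 0.112 and 0.309 in right ones, while with EE left ducts had 2.05, 3.74 and 2.83 against 1.99, 2.08 and 2.29 in right ducts. AHRR, the repressor of the aryl hydrocarbon receptor, stood at 10.3, 8.32 and 11.4 CPM in left oil ducts against 0.259, 0.279 and 0.257 in right ones, while with EE left ducts had 2.0, 2.13 and 3.4 against 0.769, 0.566 and 0.746 in right ducts. In GDF6 the EE groups overlapped between the oil groups, whereas in AHRR the left EE ducts stayed above the right. Their interactions were -4.03 ± 0.60 and -3.35 ± 0.54. MEGF6 (-2.74 ± 0.33) and CFTR, the chloride channel (-1.90 ± 0.25), fell on the left and rose on the right. ASTN2 (2.95 ± 0.33), KCNMB4, a potassium channel subunit (3.21 ± 0.41), FGF10, a mesenchymal growth factor (2.17 ± 0.33), and a collagenase 3-like protease (LOC107308401, 3.90 ± 0.57) rose on the left and fell on the right. COL21A1, a collagen, stood at 22, 29.7 and 23.3 CPM in left oil ducts against 254, 242 and 276 in right ones, while with EE left ducts had 36.6, 34.5 and 36.1 against 66.6, 65.6 and 96.3 in right ducts. Most of its change was in the right duct, with a share of 0.774, and the EE groups did not overlap.

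In 124 genes both ducts moved the same way. The right duct moved further in 44 that rose and 51 that fell, and the left duct in 10 that rose and 19 that fell. The number was 79 without the left oil library 2, 68 without the left EE library 2 and 82 without the left EE library 3, and for the 93 genes that moved towards each other it was 59 without the left oil library 3 and 52 without the left EE library 3. BMP5, a BMP ligand, stood at 19.8, 20.8 and 17.2 CPM in left oil ducts against 116.2, 118 and 141 in right ones, while with EE left ducts had 15.6, 14.1 and 10.9 against 17.7, 20.2 and 23.9 in right ducts. Right oil ducts stood apart above, and right EE ducts overlapped the left oil ducts while left EE ducts lay below. Its interaction was 2.09 ± 0.20 (adjusted p = 9.07e-06). It lies at 3:79755087-79810995, beside COL21A1 at 3:79606947-79706382.

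TCF24, a transcription factor, stood at 6.45, 20.5 and 14.8 CPM in left oil ducts against 1.29, 0.838 and 0.669 in right ones, while with EE left ducts had 29.3, 32.9 and 39.4 against 31.2, 24.9 and 45.3 in right ducts. It rose from trace levels on the right by 5.17 and on the left by 1.28, so that the EE groups overlapped (interaction -3.88 ± 0.52). WNT11, a WNT ligand of mesenchyme, stood at 30.1, 27.2 and 29.1 CPM in left oil ducts against 75.3, 93.4 and 77.1 in right ones, while with EE left ducts had 15.9, 13.8 and 18.6 against 23.2, 16 and 19.8 in right ducts. It fell in both ducts and further on the right, with an interaction of 1.22 ± 0.20 (adjusted p = 0.000806). ALDH1A3, an enzyme of retinoic acid synthesis (0.91 ± 0.11), COL5A1 and COL11A1, fibril collagens (0.99 ± 0.11 and 0.73 ± 0.11), and CEMIP, a hyaluronan-degrading protein (2.21 ± 0.41), followed the same course. BMF, a pro-apoptotic BCL2 family protein, stood at 63, 68.2 and 55.9 CPM in left oil ducts against 356, 311 and 350.2 in right ones, while with EE left ducts had 33.2, 44.8 and 38.9 against 83.5, 69 and 76.5 in right ducts. It fell in both ducts yet stayed higher in right than in left EE ducts (1.47 ± 0.16). NXPH1, a ligand of neurexins, fell in both (2.02 ± 0.51), a call lost without the left oil library 1, the right oil library 1 and the right EE library 1. EPHB1, an ephrin receptor, rose in both ducts past every oil sample (-0.75 ± 0.11).

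Some cilia genes and an egg-white gene rose in both ducts. FOXJ1, the master factor of motile cilia, stood at 8.08, 10.2 and 7.17 CPM in left oil ducts against 2.38, 1.56 and 1.49 in right ones, while with EE left ducts had 20.3, 25.3 and 22.7 against 18.9, 31.1 and 6.86 in right ducts. Right oil ducts were lowest, and the right EE samples spread from below every left oil sample to the highest level of all. Its interaction of -1.97 ± 0.55 had an adjusted p from 0.000444 to 0.207 over the alternatives, and it was lost without the left oil library 2, the right oil libraries 2 or 3, the left EE libraries 1 or 3 or the right EE library 2, in limma, with the haemoglobin covariate, and without the left oil library 1, the right oil library 1 and the right EE library 1 together. RP1, an axonemal protein, had an interaction of -3.32 ± 0.85, which was not called without the left oil library 2 or in limma, where it was -0.18 on log2(FPKM + 1) (adjusted p from 0.00544 to 0.738 over the alternatives). Of 15 multiciliated cell genes 4 were called, all lower (background 7.08%), and 2 without the left oil library 2, the right oil library 2, the left EE libraries 1 or 3 or the right EE library 2. CFAP52, among the 4, had 1 count in right oil ducts and 62 in left oil ducts, while with EE left ducts had 306 against 313 in right ducts. The protease inhibitor ovoinhibitor (LOC107320451), secreted into egg white, stood at 5.84, 9.03 and 6.45 CPM in left oil ducts against 22.4, 36 and 29 in right ones, while with EE left ducts had 274, 246 and 314 against 364, 299 and 185 in right ducts. It rose by 5.27 on the left and by 3.28 on the right, where its oil level had been higher (interaction 1.99 ± 0.32, adjusted p = 0.000568). The extracellular fatty acid-binding protein (LOC107321681) rose on the left (1.66 ± 0.48), with adjusted p from 0.0022 to 0.0844 over the alternatives. It lost its call without the left oil libraries 1 or 3, the right oil library 3, the left EE libraries 1 or 2 or the right EE libraries 2 or 3, and with the haemoglobin covariate. Of 9 egg-white and shell genes these were the 2 called, both higher (background 4.74%).

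The 4 genes whose difference was larger in size in EE were SLC5A6, BCORL1, ATP8A1 and WNT9B. In all 4 the difference changed sign between oil and EE. The sides were called apart in 0 of them in oil and in 0 in EE, so the call rests on the reversal. SLC5A6, a vitamin transporter, stood at 19.8, 19.3 and 21.3 CPM in left oil ducts against 17.1, 17.3 and 13.2 in right ones, while with EE left ducts had 19.6, 18.9 and 18.4 against 24.2, 23.1 and 27.2 in right ducts. It rose on the right past the left level (-0.73 ± 0.19, adjusted p = 0.0196). BCORL1, a corepressor, did the same (-0.60 ± 0.17), and ATP8A1, a phospholipid flippase, rose on the left (0.50 ± 0.15). BCORL1 lost its call without the left oil libraries 2 or 3, the right oil libraries 1 or 2, the left EE libraries 2 or 3 or any right EE library, and ATP8A1 without the left oil library 1, the right oil libraries 2 or 3, the left EE libraries 1 or 3 or the right EE libraries 2 or 3. Both lost it with the haemoglobin covariate and without the left oil library 1, the right oil library 1 and the right EE library 1 together, and ATP8A1 also in limma and with library size scaling. WNT9B, a WNT ligand needed for growth of the duct in mice, was named after its values were seen, since its level was under the 5 CPM minimum on average. It stood at 5.32, 4.93 and 2.83 CPM in left oil ducts against 0.517, 2.57 and 2.01 in right ones, while with EE left ducts had 0.445, 0.237 and 0.364 against 0.407, 1.46 and 0.945 in right ducts. It fell nearly to 0 in left EE ducts, and its interaction was -2.75 ± 0.84 (adjusted p = 0.0438).

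In 9 of the called genes the sides were still called apart in EE, each higher on the right, among them BMF, COL21A1, DHRS3, GAMT, MAF, MMP2, OTOA and a cystatin (LOC107310933). Their left-right log2 ratio in EE lay between -1.18 in OTOA, an inner ear matrix protein that rose in the left duct and fell in the right, and -0.50 in DHRS3. In oil it was -3.36 in COL21A1 and -1.69 in DHRS3.

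Several hormone genes changed with EE in both ducts with no call for the interaction. FOXL2, a transcription factor of the female gonad, stood at 0.187, 0.585 and 1.23 CPM in left oil ducts against 0, 0.335 and 0.566 in right ones, while with EE left ducts had 110.3, 110.5 and 117 against 138, 128 and 104 in right ducts. It was near 0 in both oil groups and high in both EE groups, with an interaction of -1.11 ± 0.69 (adjusted p = 0.344). PGR, the progesterone receptor, stood at 45.6, 68.5 and 69.3 CPM in left oil ducts against 50.6, 55.8 and 55.1 in right ones, while with EE left ducts had 352, 329.9 and 344 against 413, 379 and 243 in right ducts, with an interaction of -0.19 ± 0.24. GREB1, an oestrogen-induced gene, rose by 3.69 on the left and 3.17 on the right. ESR1, the oestrogen receptor alpha, fell by 1.01 on the left and 0.87 on the right. Their interactions were 0.51 ± 0.30 and -0.13 ± 0.13 (adjusted p = 0.305 and 0.586). WNT4, needed for duct formation in mice, fell in both ducts, with an interaction of 0.28 ± 0.19 (adjusted p = 0.416). AMH, the hormone of duct regression, and its receptor AMHR2 were not called for a change with EE in either duct. They were low, at most 7.52 and 6.48 CPM, and had interactions of -0.51 ± 0.37 and -0.67 ± 0.74. These intervals leave room for differences between the ducts: a value that misses the threshold does not show that the ducts responded alike. Of 21 steroid receptors and targets 4 were called, all higher (background 4.74%): CTSD, IGF1, STC1 and RARA. Of 24 HOX genes 0 were called by edgeR, against 11.8% of all genes, and 1 was called lower with the haemoglobin covariate. An unadjusted p under 0.05 was reached by 1, against 2923 of the 11790 genes tested. DESeq2 called 0 and limma called 1 lower.

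Where the counts were scaled by library size alone, the split of calls moved from 835 lower and 559 higher (59.9% lower) to 1237 lower and 319 higher (79.5%), and with limma on log2(FPKM + 1) to 1047 and 299 (77.8%). Under these scalings the median interaction of all genes was -0.14 and -0.13, against 0.00 with TMM, so that a value under them is read from that shift. The 95 called genes that the naming rule gave kept the direction of their interaction in each alternative computed.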

How the data were processed

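Polyadenylated RNA of Müllerian ducts was sequenced in 12 samples, 4 groups of 3. Per the submitters' processing notes, cutadapt 1.9.1, HISAT2 2.0.1, HTSeq 0.6.1 and DESeq2 1.6.3 were used. Build and strandedness were not given in the sources used here. Every gene of the table (16013) had the start and end of the RefSeq gene table of Coturnix japonica 2.1. The authors deposited raw read counts per gene with FPKM values, which were recovered from the counts and the deposited exonic gene sizes in bases within 0.006. Without a stated strand setting, overlapping and antisense genes cannot be told apart.

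Counts were fitted in R 4.3.3 with edgeR 4.0.16 (TMM, quasi-likelihood, two-sided, 4 group means) for genes with an FPKM of at least 1 in all 3 samples of any group. All adjusted p-values are edgeR's unless another tool is named, and values after ± are standard errors. Levels are CPM. Genes were sorted by which simple contrasts were called at an adjusted p under 0.05. The rule for named genes takes, above 5 CPM, the 3 largest interactions per sort and sign, up to 3 members of lowest p of each of 33 lists, and a fixed set of hormone, WNT and marker genes. Further list members were named after their values were seen. The members and lists were chosen with earlier results of these data known, and 44 list members were found by description. An exact permutation test of 3 against 3 cannot go below 0.1, so none is given. Alternatives were DESeq2 1.42.0, limma 3.58.1 on log2(FPKM + 1) and log2(FPKM + 0.1), RLE and library size scaling, 2 other filters, a replicate block, a haemoglobin covariate, haemoglobin genes left out, other sort rules, and samples left out. Scripts were tested on simulated data. A few named genes are not reported here.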

Additional observations from a re-analysis of the deposited data

Results flagged for a closer look

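Each result here was marked because the effect of EE differed between left and right ducts in a test of that difference, the interaction (EE effect in left ducts minus EE effect in right ducts, log2 scale, edgeR quasi-likelihood). It was called for 1394 genes, 11.8% of those tested. The values of 93 named genes follow by role, and no explanation was weighed for any of them.

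Among genes of dividing cells and of vessels the interaction was -2.12 in MKI67, -1.66 in KIF11, -1.63 in CCNA2, -1.08 in SOX7, -1.39 in TIE1 and -1.28 in EMCN. In macrophage genes it was 2.41 in C1QA, 1.98 in LAPTM5 and 1.75 in LCP1. In smooth muscle and epithelial genes it was -0.79 in ACTA2, -0.85 in TPM1, -0.69 in CLDN1, -0.74 in CLDN3 and -0.80 in ESRP2. In cilia genes it was -1.23 in CCDC40, -1.97 in FOXJ1, -3.32 in RP1 and -0.85 in MYB, a factor of multiciliated cells.

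Among genes of the Müllerian duct, WNT and Notch pathways it was -0.93 in WNT7A, -0.65 in MSX2, -0.66 in DACH2, -2.35 in MSX1, -1.43 in NOTUM, 1.22 in WNT11 and -1.11 in DKK3. It was -0.84 in JAG2, -0.72 in LFNG and -0.42 in NRARP. In hedgehog, AMH, BMP and activin genes it was -1.71 in GLI1, -0.47 in GAS1, -0.94 in ID1, 2.09 in BMP5, 1.79 in FST, -2.47 in GDF10 and -4.03 in GDF6. In growth factor and guidance genes it was 2.17 in FGF10, 1.20 in FGF2, 0.59 in FGFR1, 1.64 in IGF1, -0.75 in EPHB1, -0.70 in EFNB2 and -0.53 in SLIT2.

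Among matrix genes it was 1.09 in ADAMTS9, 1.19 in MMP2, 3.90 in the collagenase 3-like LOC107308401, 2.27 in COL21A1, 0.99 in COL5A1, 0.73 in COL11A1 and 2.21 in CEMIP. In retinoic acid genes it was 1.19 in DHRS3, 0.91 in ALDH1A3 and 0.58 in RDH10. In hormone receptors and targets it was 4.89 in FSHR, 4.43 in LOC107310840, 1.49 in STC1 and 1.41 in CTSD. In egg-white and egg-coat genes it was 1.99 in LOC107320451, 1.66 in LOC107321681 and 3.54 in ZP1.

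Among lysosomal and metabolic genes it was 1.11 in CTSA, 0.69 in PKM, 0.78 in ALDOC, 0.77 in GPI, -0.84 in NSDHL, -0.86 in SQLE and 0.56 in KDELR2. In apoptosis and interferon genes it was 1.47 in BMF, -0.69 in CASP2, -0.48 in cytochrome c (LOC107309196) and 1.01 in IRF7. In channels and transporters it was -1.94 in KCNJ15, 3.21 in KCNMB4, -1.90 in CFTR, 1.91 in KCNIP2, -2.41 in SLC45A2, -0.73 in SLC5A6, 0.50 in ATP8A1 and -0.84 in AQP1. In genes known from muscle, nerve or liver it was 3.98 in TNNI2, 0.65 in ELAVL4 and 1.75 in APOA1. In the remaining genes it was -3.35 in AHRR, 2.95 in ASTN2, -2.74 in MEGF6, -2.49 in COLQ, -1.98 in FABP7, -2.08 in FIBCD1, -2.69 in CRYBG2, 3.37 in LRRTM1, 3.85 in VWC2L, 2.02 in NXPH1, -3.88 in TCF24 and -0.60 in BCORL1.

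MYB lay next to the threshold and lost its call without any 1 of the 12 libraries, with RLE scaling, without the filter, with the haemoglobin covariate and with haemoglobin genes left out (adjusted p from 0.0232 to 0.131 over its alternatives). TPM1 lost its call without the left oil library 3, the left EE library 3 or the right EE library 2 (adjusted p from 0.000852 to 0.0632). Cytochrome c (LOC107309196) lost it without the left oil libraries 1 or 3, the right oil libraries 2 or 3, the left EE libraries 1 or 3 or the right EE libraries 2 or 3, and with the haemoglobin covariate (adjusted p from 0.005 to 0.0917). ELAVL4 lost it without the right oil library 3, in limma and with library size scaling (adjusted p from 0.00492 to 0.152), and FGFR1 in limma and with library size scaling (adjusted p from 0.000123 to 0.0624).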

How the results depend on the processing

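The number of called genes was 1779 in DESeq2, 1346 and 1345 in limma with pseudocounts of 1 and 0.1, 1389 with RLE scaling, 1556 with library size scaling, 1309 without the filter and 1193 with an FPKM minimum of 5. It was 1057 with the haemoglobin covariate, 1395 with haemoglobin genes left out, 1240 without the left oil library 1, the right oil library 1 and the right EE library 1, and 544 with an interaction of at least 1 in size. Leaving out each sample in turn gave 1046 to 1477 called genes, 693 to 1024 sorted to the right duct, 110 to 176 to the left, 52 to 103 to both towards each other and 68 to 149 to both the same way. Of the 1394 calls 882 were kept in every fit that left out a sample and 1014 with the haemoglobin covariate. With the covariate 628 genes were sorted to the right duct. Genes moved by both ducts the same way numbered 75 and 80 in limma with pseudocounts of 1 and 0.1 and 69 without the 3 libraries named. Genes moved by both towards each other numbered 231 when sorted by share (between 1/3 and 2/3) and 165 when each duct's change was called at 0.1. The cause of these shifts was not tested. Genes called both in the main fit and in an alternative had the same sign in each. Apart from the named genes, the signs of genes that lost their call were not compared. The sort of some genes changed sides: with the haemoglobin covariate 13 right-duct genes were sorted to the left duct, and with library size scaling 12 left-duct genes were sorted to the right.

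The replicate numbers shared by left and right samples were not taken as pairs. The correlations of deviations of same-numbered ducts were 0.0636, 0.127 and 0.165 in oil and 0.00340, -0.0195 and 0.0823 in EE, and only in oil did every sample correlate best with its own number. With a replicate block 1314 genes were called, 1245 of them shared with the fit without it, and ACTA2, GAS1, NRARP, ATP8A1, MYB and LOC107321681 were not called. That block gave each replicate number an effect shared by oil and EE samples. It therefore cannot check whether left and right ducts pair within a treatment. Limits are the 3 samples per group, of unstated origin, and genes of few counts.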

Other observations

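Smaller gene groups were split between the ducts. Of 35 tested ligands and receptors of axon guidance, which also steer vessels and mesenchyme, 6 were called lower and 4 higher (background 7.08% and 4.74%). EFNB2, an ephrin of arteries, rose in the right duct with an interaction of -0.70 ± 0.15 (adjusted p = 0.00587), NTN1, netrin, fell there (0.83 ± 0.20), and SLIT2, EPHA4 and NRP1 were sorted to the left duct. With library size scaling 11 were called lower and 1 higher, and the higher calls numbered 2 without the left oil libraries 2 or 3, the left EE library 3 or the right EE library 1. Of 24 FGF pathway genes 1 was called lower (2 without the left oil libraries 1 or 3 or the left EE library 3) and 3 higher. FGF2, a growth factor, stood at 14.1, 15.6 and 14.6 CPM in left oil ducts against 39.9, 41 and 38 in right ones, while with EE left ducts had 14.1, 10.4 and 15.4 against 18.2, 11.8 and 16.9 in right ducts (1.20 ± 0.24). Only the right oil ducts stood above the rest. Its receptor FGFR1 fell there too (0.59 ± 0.13).

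In further lists calls are to be read against 7.08% of all genes called lower and 4.74% called higher. Of 20 cholesterol synthesis genes 3 were called, all lower, or 5 with library size scaling, among them NSDHL (-0.84 ± 0.18) and SQLE, squalene epoxidase (-0.86 ± 0.20). Of 17 ion transport genes 2 were called lower and 1 higher, or 2 higher without the left oil library 3, the right oil library 2 or the right EE library 1. Of 23 apoptosis genes 2 were called lower, the initiator caspase CASP2 (-0.69 ± 0.15) and cytochrome c, and 1 higher, BMF. The lower count was 1 without the left oil libraries 1 or 3, the right oil libraries 2 or 3, the left EE libraries 1 or 3 or the right EE library 2, and the higher count 2 without the right oil library 3 or the left EE library 2. Of 30 secretory pathway genes 1 was called, KDELR2, a retrieval receptor of the endoplasmic reticulum (0.56 ± 0.11), or 2 higher without the left oil library 1 or the right EE library 3.

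Lists of other tissues held few tested genes. Called were APOA1, an apolipoprotein, of 3 liver genes, 1 of 10 neural genes, 2 of 5 skeletal muscle genes, and 2 of 3 mesonephros genes, AQP1 and SLC3A1, against 11.8% of all genes. The skeletal muscle calls, both higher, numbered 0 without the left oil libraries 2 or 3, the right oil library 1, the left EE library 3 or the right EE library 1, and 1 without the left oil library 1, the left EE library 2 or the right EE libraries 2 or 3. They numbered 3 without the right oil libraries 2 or 3. APOA1 stood at 237, 295 and 263 CPM in left oil ducts against 1107, 1787 and 1728 in right ones, while with EE left ducts had 349, 356 and 298 against 789.6, 429 and 509 in right ducts. Right oil ducts were far above the rest, and the interaction was 1.75 ± 0.28 (adjusted p = 0.000556). The part of plasma or liver transcripts in this was not tested.

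By the annotation in the table, 13 of 32 tested genes of mitotic nuclear division and 8 of 29 of DNA replication were called, against 11.8% of all genes. Cell proliferation and angiogenesis lay nearer that share, with 4 of 27 and 3 of 21 called. On the Z chromosome 58 of 541 tested genes (10.7%) were called.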
